A study of Mus musculus with 12 samples.

Results

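The nuclear pore complex genes are 30 genes that encode the nucleoporins of the pore and the proteins bound to its faces. They were chosen by name: a probeset counted for a member when the platform annotation gave it to that 1 symbol, or to an older synonym of it, and its probesets' median log2 intensity on an array was taken as its value there. Of the 30 genes, 29 had such a probeset, out of 23102 genes measured, and Tpr is not analysed here. No threshold on the values entered the choice. The set was nevertheless proposed with the KHR against KR results of these arrays known, so its counts and medians are given as descriptions with no test of the set.

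The tumours compared were 6 KHR tumours, labelled RAS and iHPV (another label adds HPV E6, an oncoprotein of human papillomavirus), and 6 KR tumours, labelled RAS only. All 12 were oral tumours of C57BL/6 × FVB F1 mice that had received tamoxifen by intraperitoneal injection, the KR mice included. Total RNA of each tumour was hybridised to 1 Affymetrix Mouse Gene 2.0 ST array. What the letters K, H and R stand for, the promoter or cell type behind the transgenes, the age of the mice and whether each tumour of a group came from its own animal are not stated by the labels. The p-values therefore reflect sample-to-sample spread, which may not be that between animals.

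The pore is the only passage for proteins and RNA through the nuclear envelope, and it is built from concentric rings. The Y complex forms the outer rings on both faces and is the first scaffold to settle on chromatin when the nucleus re-forms after mitosis, and part of it also sits at kinetochores. The inner ring lines the membrane, nucleoporins with phenylalanine-glycine repeats fill the channel, membrane nucleoporins anchor the rings, and the basket and the cytoplasmic filaments extend from the 2 faces. A growing nucleus adds pores before it divides.

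The 12 arrays had medians of 5.62 to 5.75 (log2), and their pairwise correlations were 0.94 to 0.97. Epithelial markers were high in both groups: the mean of 6 genes (Krt5, Krt14, Krt13, Cdh1, Epcam and Trp63) ranged from 11.52 to 11.98 on the KHR arrays and from 11.58 to 11.91 on the KR arrays. Of these Krt13, a keratin of mucosal epithelium, changed by -1.26 ± 0.22 (adjusted p = 0.00571) and the other 5 did not pass. Epcam, an adhesion protein of epithelial cells, was at 0.88 ± 0.24 (adjusted p = 0.0670), and the remaining 4 lay between -0.05 and 0.16. Xist, an RNA made from the inactive X chromosome, was above 11 on 4 KHR arrays and 2 KR arrays and below 5 on the rest. The labels do not state the sex of the mice, and it was not assigned from Xist here. In whole tumours, more cells of a type and more RNA per cell cannot be told apart.

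Nuclear pore genes that changed were all higher in KHR tumours. Of the 29 measured, 8 rose and none fell (limma, Benjamini-Hochberg adjusted p under 0.05 over all genes): Nup43, Nup107, Nup133, Nup160 and Nup85 of the Y complex, Nup155 of the inner ring, Nup54 of the channel and Nup88 of the cytoplasmic side. Over all genes the same fit called 2.71% higher and 1.03% lower. All 29 lay above the median gene level of 4.98, and among genes above it 5.13% were called higher and 1.95% lower. At an unadjusted p under 0.05, 12 members were higher and none lower, beside 9.64% of all genes higher and 6.21% lower, and 16.7% higher and 9.32% lower among genes above the median level. Nothing is read from these shares, because the contrast was known when the set was proposed. The changes (KHR minus KR, log2) ran from -0.07 to 0.97, with a median of 0.24 over the 29 genes, against 0.00 over all genes and 0.05 over genes above the median level. The change was positive for 26 genes and negative for 3. Among genes above the median level it was positive for 6672 and negative for 4879. For 8 genes every KHR array lay above every KR array, as it did for 1.83% of all genes and 3.39% of genes above the median level. For no member did every KHR array lie below every KR array, as it did for 0.84% of all genes.

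By structural part, 5 of 9 Y complex genes rose, 1 of 5 of the inner ring, 1 of 3 of the channel, none of 4 of the membrane ring, none of 2 measured of the basket and 1 of 6 of the cytoplasmic side. The median change was 0.42 for the Y complex, 0.19 for the inner ring, 0.12 for the channel, 0.20 for the membrane ring, 0.19 for the basket and 0.19 for the cytoplasmic side. Outside the Y complex, 3 of 20 genes rose and the median change was 0.17. Whether the Y complex differed from the other parts was not tested. When probesets were averaged instead, the Y complex median was 0.25, and that of all members was 0.23.

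**Figure D1:**
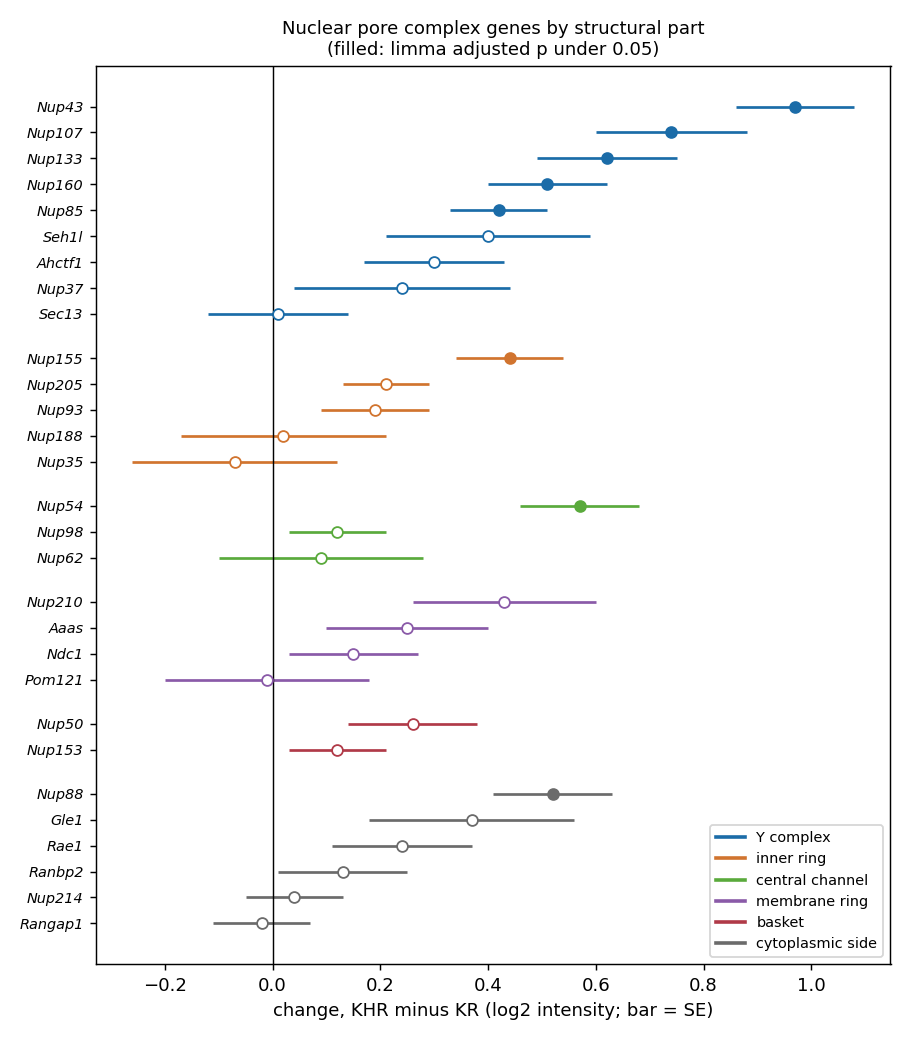
Change of each of the 29 measured nuclear pore genes, KHR minus KR in log2 intensity (x axis; point with SE bar, n = 6 each), grouped and coloured by structural part; filled points passed an adjusted p of 0.05. The 8 filled points lie between 0.42 (Nup85) and 0.97 (Nup43), and 5 of them belong to the Y complex.

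Nup43, a beta-propeller subunit on the short arm of the Y complex, had the largest change of the 29 genes. Its value lay between 7.73 and 8.32 (median 8.20) on the KHR arrays, against 6.96 to 7.32 (median 7.20) on the KR arrays, and the groups were clear of each other. It rose by 0.97 ± 0.11 (SE; adjusted p = 0.000307), a 1.95-fold difference. KHR 6 was the low array of its group, and without it the change was 1.05.

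Nup107 and Nup133 form the stem of the Y. Nup107 lay between 7.84 and 8.47 (median 7.97) on the KHR arrays, against 7.15 to 7.64 (median 7.32) on the KR arrays. KHR 3 and KHR 5 were the high arrays, and the lowest KHR array still exceeded the highest KR array. The change was 0.74 ± 0.14 (adjusted p = 0.00900). Nup133, at the tip of the stem, lay between 7.54 and 8.02 (median 7.80) on the KHR arrays, against 6.70 to 7.42 (median 7.21) on the KR arrays. Its groups did not overlap either, with KR 6 the lowest array, and it rose by 0.62 ± 0.13 (adjusted p = 0.0162).

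Nup160 and Nup85 build the 2 short arms. Nup160 lay between 8.58 and 9.12 (median 8.79) on the KHR arrays, against 8.06 to 8.53 (median 8.25) on the KR arrays. The gap between the groups was narrow, and the change was 0.51 ± 0.11 (adjusted p = 0.0190). Nup85 lay between 8.58 and 9.00 (median 8.75) on the KHR arrays, against 8.20 to 8.49 (median 8.30) on the KR arrays. It rose by 0.42 ± 0.09 (adjusted p = 0.0204). That call rested on the summary of its probesets: it was 0.10 with their mean (adjusted p = 0.643) and 0.19 with median polish (adjusted p = 0.176), and it was also lost with quantile normalization (0.35, adjusted p = 0.0686), with the replicate block (adjusted p = 0.0657) and without KHR 4 (adjusted p = 0.0530).

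The other 4 genes of the Y complex did not pass. Seh1l, a beta-propeller subunit that is shared with the GATOR complex of nutrient signalling, lay between 8.54 and 9.50 (median 9.10) on the KHR arrays, against 8.03 to 8.94 (median 8.72) on the KR arrays. The groups overlapped, with 4 of 6 KHR arrays above the highest KR array (change 0.40 ± 0.19, adjusted p = 0.327). Ahctf1, which encodes ELYS, the protein that brings the complex to chromatin, lay between 10.03 and 10.73 (median 10.52) on the KHR arrays, against 9.78 to 10.43 (median 10.18) on the KR arrays. KHR 1 and KHR 2 fell among the KR arrays, and the change was 0.30 ± 0.13 (adjusted p = 0.276). Nup37, a small beta-propeller bound to Nup160, differed by 0.24 ± 0.20, with 7.30 to 8.26 on the KHR arrays against 7.01 to 8.12 on the KR arrays. Sec13, which the pore shares with the COPII coat of secretory vesicles, differed by 0.01 ± 0.13 (adjusted p = 0.979), with a change below 0 with quantile normalization, array medians subtracted or median polish.

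Of the inner ring, Nup155, the linker between the ring and the membrane, lay between 9.43 and 9.69 (median 9.60) on the KHR arrays, against 8.93 to 9.41 (median 9.15) on the KR arrays. The highest KR array came close to the lowest KHR array without reaching it. The change was 0.44 ± 0.10 (adjusted p = 0.0233), against 0.42 (adjusted p = 0.0599) with the Xist level and 0.41 (adjusted p = 0.0539) with the mean of 5 skeletal muscle genes as a covariate, sizes close to that without them. It was also above 0.05 without KHR 6, KR 1, KR 2 or KR 3 (0.0528, 0.0502, 0.0584 and 0.0524). The scaffold genes Nup205 and Nup93 differed by 0.21 ± 0.08 and 0.19 ± 0.10 (adjusted p = 0.214 and 0.418). Nup205 passed with median polish alone (0.26, adjusted p = 0.0417). Nup188, a large scaffold protein related to Nup205, and Nup35, which bends the membrane, differed by 0.02 ± 0.19 and -0.07 ± 0.19. The sign of both depended on the setting.

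Of the channel, Nup54, a partner of Nup62 in the trimer that carries phenylalanine-glycine repeats, lay between 8.76 and 9.24 (median 9.06) on the KHR arrays, against 8.21 to 8.69 (median 8.48) on the KR arrays. The groups were separate by a small gap, and it rose by 0.57 ± 0.11 (adjusted p = 0.00900). Nup62 itself differed by 0.09 ± 0.19 (adjusted p = 0.896, below 0 with the mean over probesets) over 5 probesets. Nup98, whose precursor also gives the Y complex protein Nup96, differed by 0.12 ± 0.09 (adjusted p = 0.586). Its probesets cannot be assigned to either protein here. The third gene of the Nup62 trimer, Nup58, is not among the 30 and is given below as Nupl1, its name in the annotation.

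Of the cytoplasmic side, Nup88, which binds Nup214 and the export receptor, lay between 9.27 and 9.80 (median 9.51) on the KHR arrays, against 8.81 to 9.20 (median 9.04) on the KR arrays. The groups did not overlap, and the change was 0.52 ± 0.11 (adjusted p = 0.0141). It was 0.18 with the mean over probesets (adjusted p = 0.334) and 0.24 with median polish (adjusted p = 0.161), so this call also rested on the summary. Its partner Nup214 differed by 0.04 ± 0.09 (adjusted p = 0.904, below 0 with quantile normalization). Gle1, an activator of the RNA helicase of mRNA export, lay between 6.98 and 7.84 (median 7.46) on the KHR arrays, against 6.69 to 7.72 (median 6.97) on the KR arrays. KR 1 lay above 4 of the 6 KHR arrays, and the change was 0.37 ± 0.19 (adjusted p = 0.383). Rae1, an mRNA export factor, differed by 0.24 ± 0.13. Ranbp2, the large filament protein, and Rangap1, the activator of Ran's GTPase that is docked on it, differed by 0.13 ± 0.12 and -0.02 ± 0.09, and the sign of Rangap1 turned with either other probeset summary.

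No gene of the membrane ring or the basket passed. Nup210, a transmembrane nucleoporin whose level differs between tissues, lay between 5.39 and 5.96 (median 5.83) on the KHR arrays, against 5.00 to 6.15 (median 5.22) on the KR arrays. The highest array of all was KR 6. The change was 0.43 ± 0.17 (adjusted p = 0.231) with all arrays and 0.59 without KR 6, where it passed (adjusted p = 0.0202). With the mean over probesets it was 0.22 (adjusted p = 0.18), and with median polish 0.10 (adjusted p = 0.551). Aaas, which encodes ALADIN, differed by 0.25 ± 0.15, and its membrane anchor Ndc1 by 0.15 ± 0.12. Pom121, a transmembrane nucleoporin of pore assembly, differed by -0.01 ± 0.19, with a sign that depended on the setting. In the basket, Nup50, a cofactor of import, differed by 0.26 ± 0.12 (adjusted p = 0.304), and it passed with the mean over probesets (0.26, adjusted p = 0.0449). Nup153, which anchors the basket, differed by 0.12 ± 0.09 (adjusted p = 0.558).

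**Figure D2:**
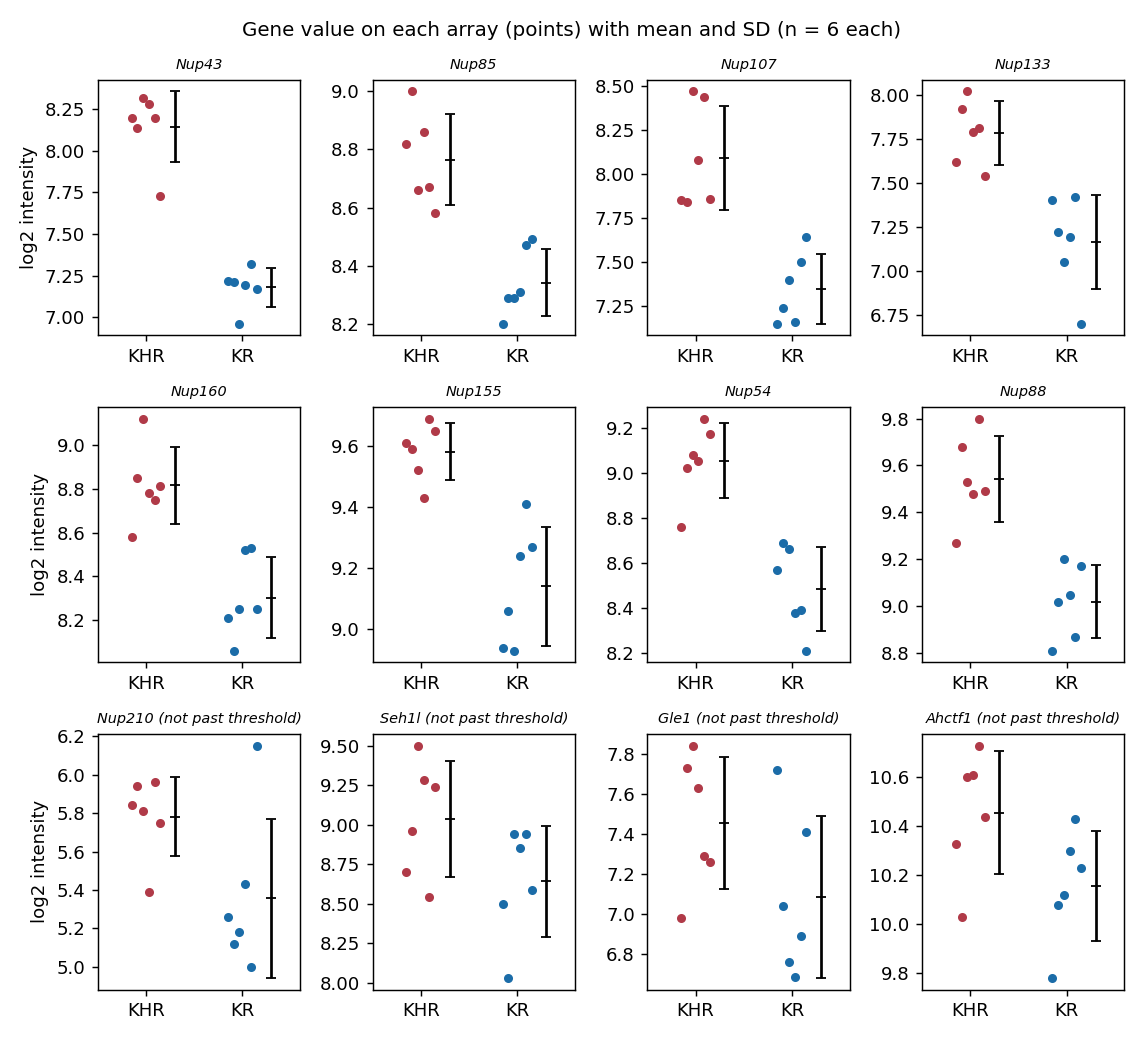
Value of 12 nuclear pore genes on every array (points, log2 intensity), KHR left and KR right, with the mean and SD of 6 arrays; y axes differ between panels and do not start at 0. In the 8 genes that passed the threshold all KHR points lie above all KR points, while the groups overlap in Nup210, Seh1l, Gle1 and Ahctf1.

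The calls of Nup43, Nup107, Nup133, Nup160 and Nup54 held in all 11 other fits at that threshold and on leaving out each of the 12 arrays, with adjusted p-values up to 0.0497. The sizes were smaller with other summaries of the probesets. With their mean, Nup43 rose by 0.68, Nup107 by 0.61, Nup133 by 0.38, Nup160 by 0.39 and Nup54 by 0.39. The count of members that rose was 7 to 9 on leaving out 1 array and 7 or 8 in the other fits at the same threshold.

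The promoters of the genes that rose were read to see what they share. RefSeq windows of GRCm38.p6, from 250 bases before to 50 bases after a start site, were held for 26 of the 30 genes (29 windows) and for 6 of the 8 that rose; Nup43 and Nup85 had none. Both strands were searched for the E2F motif (TTTCCCGC, TTTCGCGC, TTTGCCGC or TTTGGCGC), the ETS motif CCGGAAG, the 10-letter NRF1 palindrome, CCAAT, and the CHR element of cell cycle promoters (TTTGAA or TTTAAA). None of these motifs contains another. The E2F letters stood in 1 of 29 windows, that of Nup210, and in none of the 6 genes that rose, against 2.26% of all windows and 3.82% of windows of genes above the median level. The ETS letters stood in 9 windows of 8 genes, which is 31.0% of windows against 8.86% of all windows and 17.5% for genes above the median level. Of the genes that rose, Nup107, Nup155 and Nup54 held them, and Nup133, Nup160 and Nup88 did not. The other genes that held them, Aaas, Gle1, Nup37, Rae1 and Sec13, did not pass. Nup37 was counted with 2 windows that overlap. The NRF1 letters stood in the windows of Nup107, Nup50 and Nup62, 10.3% against 0.971% and 2.04%. CCAAT stood in 37.9% of windows against 37.4% and 37.5%, and in 2 of the 6 genes that rose (Nup155 and Nup88). CHR stood in 31.0% against 27.6% of all windows and 2288 of the 11464 windows of genes above the median level, a smaller share than in all windows, and in none of the 6 genes that rose. The shares were not tested, a match is not a bound site, and no match says only that these letters are not in the window.

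The 250 bases before the start site are shown for the 3 genes that rose and hold the ETS letters and for Nup210, which holds the E2F letters and did not pass; capitals mark ETS, NRF1 and E2F matches, and each sequence runs 5′ to 3′ toward its gene.
Nup107, minus strand, GRCm38.p6 chr10:117792706-117792955: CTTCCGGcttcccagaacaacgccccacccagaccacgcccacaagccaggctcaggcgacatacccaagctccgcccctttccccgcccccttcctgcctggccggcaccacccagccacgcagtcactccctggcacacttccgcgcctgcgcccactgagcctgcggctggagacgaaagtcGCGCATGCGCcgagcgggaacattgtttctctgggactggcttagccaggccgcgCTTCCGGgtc
Nup54, minus strand, GRCm38.p6 chr5:92435200-92435449: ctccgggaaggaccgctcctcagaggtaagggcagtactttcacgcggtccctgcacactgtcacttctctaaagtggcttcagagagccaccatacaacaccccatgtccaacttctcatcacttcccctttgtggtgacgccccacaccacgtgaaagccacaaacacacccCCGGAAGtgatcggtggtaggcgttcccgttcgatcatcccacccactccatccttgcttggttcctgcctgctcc
Nup155, plus strand, GRCm38.p6 chr15:8109063-8109312: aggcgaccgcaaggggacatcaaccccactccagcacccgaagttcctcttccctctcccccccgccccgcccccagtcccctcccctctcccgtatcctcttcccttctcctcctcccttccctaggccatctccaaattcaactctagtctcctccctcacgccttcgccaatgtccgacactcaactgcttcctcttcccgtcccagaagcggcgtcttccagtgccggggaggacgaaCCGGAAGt
Nup210, minus strand, GRCm38.p6 chr6:91116827-91117076: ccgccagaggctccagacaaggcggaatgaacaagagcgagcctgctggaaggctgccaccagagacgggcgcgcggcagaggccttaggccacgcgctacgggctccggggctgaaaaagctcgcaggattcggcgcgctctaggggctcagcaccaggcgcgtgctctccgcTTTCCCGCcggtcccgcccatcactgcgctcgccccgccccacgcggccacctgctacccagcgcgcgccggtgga
In Nup107 the NRF1 palindrome begins 65 bases before the start site, and ETS matches on the strand opposite to the gene begin at bases -250 and -10, with 1 more at base 11 after the start site, outside the stretch shown. The ETS match begins 76 bases before the start site in Nup54 and 8 bases before it in Nup155. The E2F match of Nup210 begins 76 bases before its start site.

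The exon-level probesets showed how evenly a gene moved. Of the 607 probesets of the 29 genes, 473 (77.9%) had a positive change, against 50.6% of all 269751 probesets. The latter include probesets of dim genes, and no such probeset share was taken for genes above the median level. Among those of the Y complex, 156 of 182 (85.7%) were positive, and of the cytoplasmic side 76 of 119 (63.9%). Adjusted over all probesets, 9 rose and none fell, where the fit called 0.616% of all probesets higher and 0.267% lower. Of these 9, 4 belonged to Nup43, 3 to Nup160, 1 to Nup107 and 1 to Nup155.

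All 10 probesets of Nup43, all 21 of Nup107 and 28 of 29 of Nup155 were higher in KHR tumours. The changes of Nup43 ran from 0.28 to 1.00 and those of Nup107 from 0.11 to 1.34. In other genes a few probesets went far against the rest: Nup85 had 13 of 17 positive with 1 at -1.17, Nup88 had 15 of 21 positive with 2 below -1 (the lowest at -1.12), and Nup133 had 19 of 22 positive with 1 at -0.75. The medians over the probeset changes were 0.22 for Nup85, 0.28 for Nup88 and 0.41 for Nup133, all below the changes of the gene values. The same held for Nup43 (0.72 against 0.97), Nup107 (0.55 against 0.74), Nup54 (0.44 against 0.57) and Nup160 (0.46 against 0.51). It did not hold for Nup155 (0.49 against 0.44). Nup214 had 20 of 32 probesets below 0 and Pom121 10 of 15. Probesets of 1 gene share its RNA and are not replicates.

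**Figure D3:**
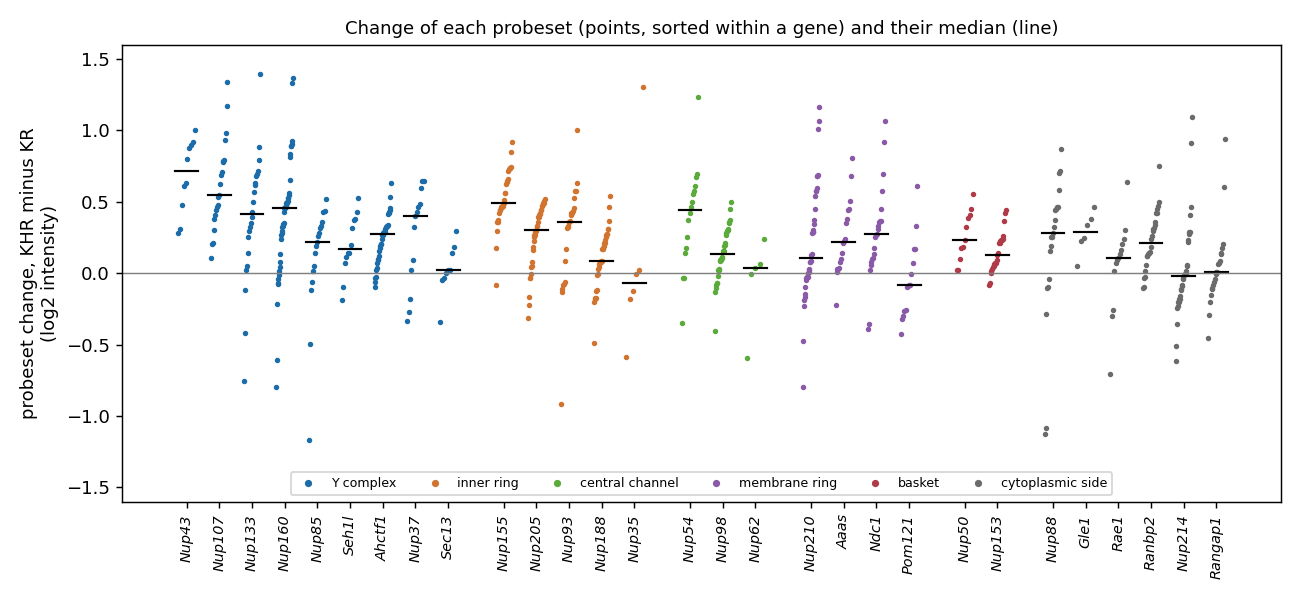
Change of each probeset (points, KHR minus KR in log2 intensity, sorted within a gene) for the 29 measured nuclear pore genes, coloured by structural part, with the median over a gene's probesets (line). All 10 Nup43 points and all 21 Nup107 points lie above 0, while Nup85 has 1 point and Nup88 has 2 points below -1.

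The other genes of the transport pathway were read from lists that hold no member. Among 6 further pore genes, none passed. Nup58 (Nupl1 in the annotation) lay between 10.63 and 11.12 (median 10.84) on the KHR arrays, against 10.22 to 10.61 (median 10.55) on the KR arrays. The groups did not overlap, yet the change of 0.35 ± 0.10 missed the threshold over all genes (adjusted p = 0.0857), which it passed with median polish (0.29, adjusted p = 0.0165). Of 44 measured importins, exportins, Ran cycle and mRNA export genes, 4 rose and none fell. The same fit called 2.71% of all genes higher and 1.03% lower, and 5.13% and 1.95% of those above the median level. The changes of the 44 ran from -0.69 to 0.61, with a median of 0.12, and were positive for 29 and negative for 15. At an unadjusted p under 0.05, 13 were higher and 3 lower, beside 9.64% and 6.21% of all genes (16.7% and 9.32% of those above the median level). The 3 lower were Rangrf (-0.69, 1 probeset), Ipo13 (-0.48) and Ran itself (-0.47, though 3 of its 5 probesets were higher). Their limma adjusted p-values were 0.218, 0.159 and 0.13.

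The importin Ipo9, a carrier of histones, rose by 0.61 ± 0.11 (adjusted p = 0.00702), with 9.13 to 9.75 on the KHR arrays against 8.64 to 9.00 on the KR arrays. Kpna2, an importin alpha of proliferating cells, rose by 0.44 ± 0.11 (adjusted p = 0.0358). Its groups did not overlap, but it no longer passed without any 1 of 8 arrays (all except KHR 2, KHR 3, KR 1 and KR 5), with adjusted p-values up to 0.0845, and also with array medians subtracted (0.41, adjusted p = 0.0617), the Xist covariate (0.46, adjusted p = 0.0634) or the muscle covariate (0.45, adjusted p = 0.0587), where the change itself stayed about as large. Xpo4, an exportin, rose by 0.42 ± 0.09 (adjusted p = 0.0155). Averaged probesets gave 0.22 (adjusted p = 0.0962) and median polish 0.23 (adjusted p = 0.0795), neither past the threshold. Ranbp1, a cofactor of the Ran cycle, rose by 0.51 ± 0.11 (adjusted p = 0.0199). It was 0.14 with averaged probesets (adjusted p = 0.396) and 0.16 with median polish (adjusted p = 0.363), and the call was also lost with the Xist covariate (adjusted p = 0.0509) and without KR 2 (adjusted p = 0.0506). Of 14 measured mRNA export genes none passed, the smallest p being that of Thoc7 of the THO complex, at 0.40 ± 0.13 (adjusted p = 0.121; 0.0418 without KHR 4 and 0.0443 with averaged probesets).

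Proliferation genes were also higher in KHR tumours. All 16 measured of a list of replication and mitosis genes rose and none fell, with a median change of 1.00. Beside this, 2.71% of all genes were called higher and 1.03% lower, and 5.13% and 1.95% of genes above the median level. The list was chosen with earlier results of these arrays known. Mcm6 and Mcm4, subunits of the replicative helicase, rose by 1.30 ± 0.10 and 1.11 ± 0.10, Rrm1 of ribonucleotide reductase by 0.99 ± 0.10 and the sliding clamp gene Pcna by 0.93 ± 0.10. The list mean lay between 9.56 and 9.93 on the KHR arrays, against 8.53 to 8.84 on the KR arrays. Because it parts the groups without overlap, the change of the pore genes with proliferation and with genotype cannot be told apart here. The mean of the Y complex lay between 8.43 and 8.76 on the KHR arrays, against 7.94 to 8.31 on the KR arrays. KHR 3 was highest in both means and KR 2 lowest in both. The lowest KHR array was KHR 1 for the Y complex and KHR 2 for the proliferation list. The highest KR array was KR 5 for the Y complex and KR 4 for the proliferation list. The mean of the other 20 pore genes lay between 8.87 and 9.11 on the KHR arrays, against 8.72 to 8.84 on the KR arrays.

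The list means of markers of other cell types overlapped between the groups. They differed (KHR minus KR) by 0.43 for skeletal muscle, 0.27 for immune cells and -0.32 for fibroblasts, beside 0.28 for all pore genes. Whether cell composition differed was not tested. Averaged over 5 genes of skeletal muscle, the level lay between 5.59 and 7.97 on the KHR arrays, against 5.56 to 6.79 on the KR arrays, with KHR 5 highest. Among the 29 pore genes KHR 5 was the lowest KHR array for 9 and the highest for 8. With the muscle mean as a covariate the change was higher for 14 genes, those 9 among them, and lower for 15, among them 7 of those 8. Because KHR 5 had the highest muscle mean, this pattern follows largely from the fit, and nothing is read from it. The largest shifts with KHR 5 lowest were in Pom121 (-0.01 to 0.18) and Nup62 (0.09 to 0.25). Next came Aaas (0.25 to 0.39) and Rae1 (0.24 to 0.34). With KHR 5 highest they were in Nup35 (-0.07 to -0.24) and Nup37 (0.24 to 0.10). Next came Ahctf1 (0.30 to 0.21) and Ranbp2 (0.13 to 0.04). None of these 8 passed with or without the covariate, which left 7 members past the threshold (all that rose except Nup155). The mean of 4 immune genes (Ptprc, Cd68, C1qb and Cd3e) lay between 6.46 and 7.07 on the KHR arrays, against 6.16 to 6.80 on the KR arrays, and none of them passed. Their changes were 0.58 for C1qb and 0.53 for Cd68 (limma adjusted p = 0.204 and 0.235), 0.14 for Ptprc and -0.16 for Cd3e. The mean of 4 fibroblast genes lay between 8.78 and 9.51 on the KHR arrays, against 9.01 to 10.03 on the KR arrays. The collagen chain gene Col1a2 changed by -0.80 ± 0.18 (adjusted p = 0.0220). The other 3 did not pass, with values of -0.63 for Col1a1, -0.44 for Col3a1 and 0.58 for the receptor gene Pdgfra. The part of immune and fibroblast RNA in the pore gene values was not tested.

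**Figure D4:**
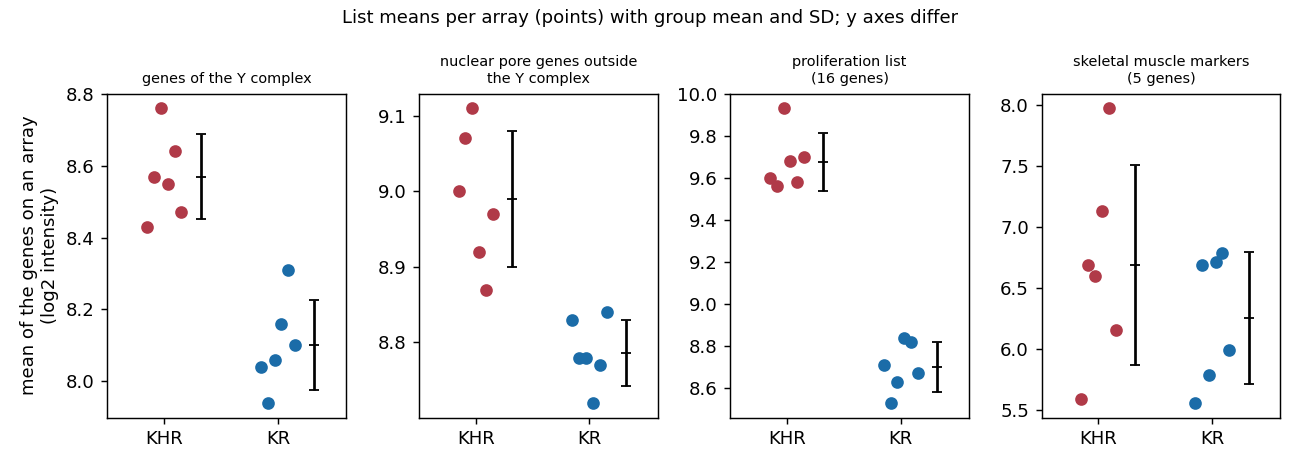
Mean of a gene list on each array (points, log2 intensity) with the group mean and SD of 6 arrays, KHR left and KR right; y axes differ and do not start at 0. The 2 groups are separate for the Y complex, for the 20 other nuclear pore genes and for 16 proliferation genes, and overlap for 5 skeletal muscle markers. Among lists not shown, the exportin mean is also separate (9.79 to 9.95 against 9.64 to 9.78), although 1 of 7 exportins passed. The means of the importins, Ran cycle and mRNA export genes overlap.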

How the data were processed

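The deposited values were log2 intensities, 1 per probeset and array, for 269751 probesets. Per the submitters' processing notes Partek was used; its version, normalization and background correction are not given there, and log base 2 was inferred from the values' range. GEO's platform annotation named the probesets, and older symbols were updated through the RefSeq table of GRCm38.p6 (233753 with 1 symbol, 5106 with several, 30892 with none; Ndc1 was listed as Tmem48). Gene values were medians over probesets, with no filter on dim genes, since no detection calls were used. All 23102 genes were fitted with limma 3.58.1 in R 4.3.3 (lmFit, eBayes, 12 arrays, no covariate, two-sided), adjusted by Benjamini-Hochberg, threshold 0.05, and the fit was tested on simulated data. Tables and figures used Python 3.11.15. Precision is limited by having 6 arrays a group.

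The members and lists were chosen with earlier results of these data known. All members are named; array values are given for those past the threshold and for the 4 with the largest change among the rest; of each other list, up to 4 genes past the threshold or else the 1 with the smallest p. The transport genes that were lower at an unadjusted p under 0.05 were added after their values were seen. Marker lists are given as means, with some of their genes, chosen after their values were seen, by name. Alternatives were other probeset summaries, scalings, eBayes with trend and robust, array weights, Xist or muscle as a covariate, the replicate number as a block, filters, a stricter threshold and leaving out each array.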

Additional observations from a re-analysis of the deposited data

Results flagged for a closer look

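In a group of 6 arrays, a gene was listed here when 1 array stood apart by a gap that, as a share of the group's range, was above Dixon's critical value. Of 78 groups looked at, 5 did so, all of them of pore genes, where chance gives about 1 in 20. The groups of different genes come from the same arrays and are not independent, so nothing is read from this count. Nup43 stood at 7.73 on KHR 6, against 8.14 to 8.32 on the other KHR arrays. Sec13 stood at 7.75 on KHR 4, against 8.25 to 8.43 on the others. Nup205 stood at 9.52 on KHR 5, against 9.73 to 9.84 on the others. Nup210 stood at 5.39 on KHR 4, against 5.75 to 5.96 on the others. Pom121 stood at 8.77 on KR 1, against 8.03 to 8.28 on the other KR arrays.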

How the results depend on the processing

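The count of members that rose was 8 with the values as deposited, 7 to 9 on leaving out 1 array and 3 at an adjusted p under 0.01. In every alternative run no member fell. The median change of all members lay between 0.20 and 0.25 on leaving out 1 array, and that of the Y complex between 0.40 and 0.49, and it was 0.25 with the mean over probesets. The labels do not state whether same-numbered arrays share more than a number, and the values do not settle it. The correlations of their deviations ran from -0.003 to 0.234, and 1 of 6 pairs was best with its own number. With the replicate block 7 members rose. Over all genes that fit called 668 higher and 257 lower, against 625 and 238 without the block. For all genes the share of calls that were higher was 72.4%, against 56.8% with quantile normalization. Changes near 0 turned sign. Sec13 was -0.04 with median polish, -0.06 with quantile normalization and -0.02 with array medians subtracted. Nup188 was -0.03 and -0.01 with the last 2 of these, and Nup214 -0.03 with quantile normalization. With the mean over probesets Nup35 was 0.07, Nup62 -0.05 and Rangap1 0.04 (0.03 with median polish and 0.00 with the Xist covariate). Pom121 was 0.04 with array weights, 0.11 with the Xist covariate and 0.18 with the muscle covariate. On leaving out 1 array, Sec13 ranged from -0.02 to 0.11, Nup35 from -0.20 to 0.04, Nup188 from -0.08 to 0.11, Pom121 from -0.10 to 0.12 and Rangap1 from -0.07 to 0.01. The cause of these turns was not tested.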

Other observations

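The annotation gave 9 probesets to a member together with another gene, and they entered no gene value. The 4 shared by Nup85 and Hmgb1 changed by 0.05 to 0.97, the 3 shared by Nup188 and Phyhd1 by 0.30 to 0.44, and 1 each of Nup62 and Seh1l by -0.48 and -0.03. The smallest adjusted p over all probesets was 0.166, so none of the 9 passed.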
